A study of Mus musculus with 15 samples.

Results

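Transcripts of 3 ErbB receptors and 7 EGF-type ligands were followed in 4T1 cells, a mouse mammary carcinoma line used as a model of triple-negative breast cancer. The receptors were Egfr, Erbb2 and Erbb3, and the ligands were Areg, Ereg, Hbegf, Tgfa, Btc, Nrg1 and Epgn. They were taken by symbol from the deposited count table, and all 10 symbols were found among its 40402 genes. The conditions were untreated cells, cells given blackberry extract (BLA), cells given blueberry extract (BLU), and cells given the gold nanoparticles made with the blackberry (BLA-A) or the blueberry (BLU-A) preparation. All were wild-type 4T1 cells in culture, with no other agent given, and the treatments began 24 h after seeding. Each condition has 3 deposited columns, 15 in all, and these were averaged to 1 library per condition. Within every condition the 3 columns agreed more closely than separate draws of reads would, at a chi-square per degree of freedom of 0.0951 to 0.475. The study's sequencing report gives a single total of raw reads per condition and equal subsets of reads under the letters A, B and C, while its statistics section speaks of independent biological replicates. Since the columns agreed so closely, they were counted as 1 sample. A difference between a treatment and untreated cells then has no replicate check, and it is given below with its counting error only.

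ErbB receptors are tyrosine kinases of the cell surface that are switched on when a ligand makes them pair. Of the ligands followed here, EGFR binds amphiregulin, TGF-α, HB-EGF, betacellulin, epiregulin and epigen. ERBB2 binds no known ligand and is the favoured partner of the others, and ERBB3, whose kinase is weak, binds neuregulins and recruits PI3K. The ligands are made as membrane-bound precursors and are freed by ADAM proteases, chiefly ADAM17, and the activated receptors feed the RAS-ERK and PI3K-AKT pathways. In mammary epithelium amphiregulin is the ligand through which estrogen drives ductal growth, and amplified ERBB2 defines a class of breast tumours that triple-negative tumours lack.

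The averaged libraries held 25613711 to 26956308 counts, so a floor of 3 counts stood at 0.109 to 0.129 CPM, the count scaled to a common library size. Levels below are CPM after trimmed-mean (TMM) scaling, with exact Poisson 95% intervals that cover counting error only. A gene was kept if any library had it at 1 CPM or more, which 17594 genes did, 9 of the 10 ErbB genes among them. Ereg did not pass, and Epgn passed only through its value in BLU. The 6 epithelial markers (Epcam, Krt8, Krt18, Krt7, Cdh1 and Cldn7) were each at 1 CPM or more in all libraries, with sums of 949 CPM in BLA to 1710 CPM in BLA-A. The 5 fibroblast markers summed to 87.2 to 104 CPM, nearly all from Pdgfra, with Lum at 0 in all libraries. The 5 immune markers summed to 9.02 to 11.0 CPM, the 3 endothelial ones to 1.75 to 4.06 CPM, and the 2 adipocyte ones to 0 to 0.666 CPM. Of the hormone receptors, Esr1 was at 24.2 CPM and Pgr at 0.95 CPM in untreated cells, counted over whole genes. The BLA-A library stood apart, with a scaling factor of 0.905 against 1.01 to 1.03 in the others.

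Areg, Epgn, Ereg and Btc lie together on mouse chromosome 5, within 375.561 kb from the start of Epgn to the end of Btc. Upstream sequence is shown for the 3 of them that passed the filter, because Areg was the member with the largest difference in BLA-A while Epgn and Btc on either side were highest in the extracts. The sequences are the RefSeq windows of 250 bases before the transcript start, cut at the gene start of GENCODE M39 and placed on GRCm39 by an exact match. Of the 10 genes, 6 had such a window. They are written 5′ to 3′ on the gene's own strand, with capitals for matches to a cyclic AMP response element (TGACGTCA) or a TATA box (TATAAA).
Areg, chr5:91287208-91287450, plus strand: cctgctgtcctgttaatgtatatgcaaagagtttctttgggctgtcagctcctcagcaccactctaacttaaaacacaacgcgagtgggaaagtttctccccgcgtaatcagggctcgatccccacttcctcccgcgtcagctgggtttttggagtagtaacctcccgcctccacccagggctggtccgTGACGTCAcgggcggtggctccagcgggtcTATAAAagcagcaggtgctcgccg
Epgn, chr5:91175126-91175322, plus strand: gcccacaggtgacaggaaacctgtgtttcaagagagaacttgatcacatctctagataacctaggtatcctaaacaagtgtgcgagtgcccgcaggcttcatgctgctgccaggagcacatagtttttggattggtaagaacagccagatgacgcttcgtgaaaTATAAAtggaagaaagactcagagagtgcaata
Btc, chr5:91550884-91551103, minus strand: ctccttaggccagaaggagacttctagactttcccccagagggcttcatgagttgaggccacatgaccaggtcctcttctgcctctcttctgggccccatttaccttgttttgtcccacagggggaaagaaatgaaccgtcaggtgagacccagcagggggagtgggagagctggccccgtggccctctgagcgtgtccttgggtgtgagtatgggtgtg
The Areg window held the cyclic AMP response element 61 to 54 bases before the RefSeq start and the TATA box 31 to 26 bases before it. The Epgn window held a TATA box 86 to 81 bases before the RefSeq start, and the Btc window held neither. The last 7 bases of the Areg window, 53 of Epgn and 30 of Btc lie inside the GENCODE gene and are not printed. Over the 32851 windows of 250 bases in the same table, searched on both strands, 1.55% held the cyclic AMP response element and 12.4% the TATA box. An AP-1 site (TGANTCA), whose letters the cyclic AMP response element does not contain, was in 6.75% of all windows. A GC box (GGGGCGGGG) was in 10.4% of them. Among the 6 ErbB windows the AP-1 letters were in none, and the GC box was in that of Tgfa. It lay 17 to 9 bases before the RefSeq start, among the 163 bases of that window inside the GENCODE gene. Egfr, Erbb2 and Btc had no match to any of the 4 motifs. A match describes these letters only.

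In untreated cells the ligand genes Hbegf and Areg had the highest levels per length and Epgn and Ereg the lowest. Reads had been counted over whole genes, introns included, so levels of different genes were compared per kb of gene span. On that scale Hbegf was at 12.8 CPM per kb, Areg at 8.13, Erbb2 at 1.32, Tgfa at 1.12 and Btc at 0.303. Egfr followed at 0.236 CPM per kb, Erbb3 at 0.215, Nrg1 at 0.0562, Epgn at 0.0339 and Ereg at 0.0142. Neighbours whose counting intervals overlapped were Egfr and Erbb3, Nrg1 and Epgn, and Epgn and Ereg. Per kb of merged exons Areg came first at 58.9 CPM per kb and Hbegf second at 29.2, ahead of Tgfa at 13.2 and Erbb2 at 6.18. Between the orders, 3 of the 10 genes kept their rank. Nrg1, which spans 1071 kb and has 16.7 kb of exon, moved from rank 8 to rank 5.

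**Figure D1:**
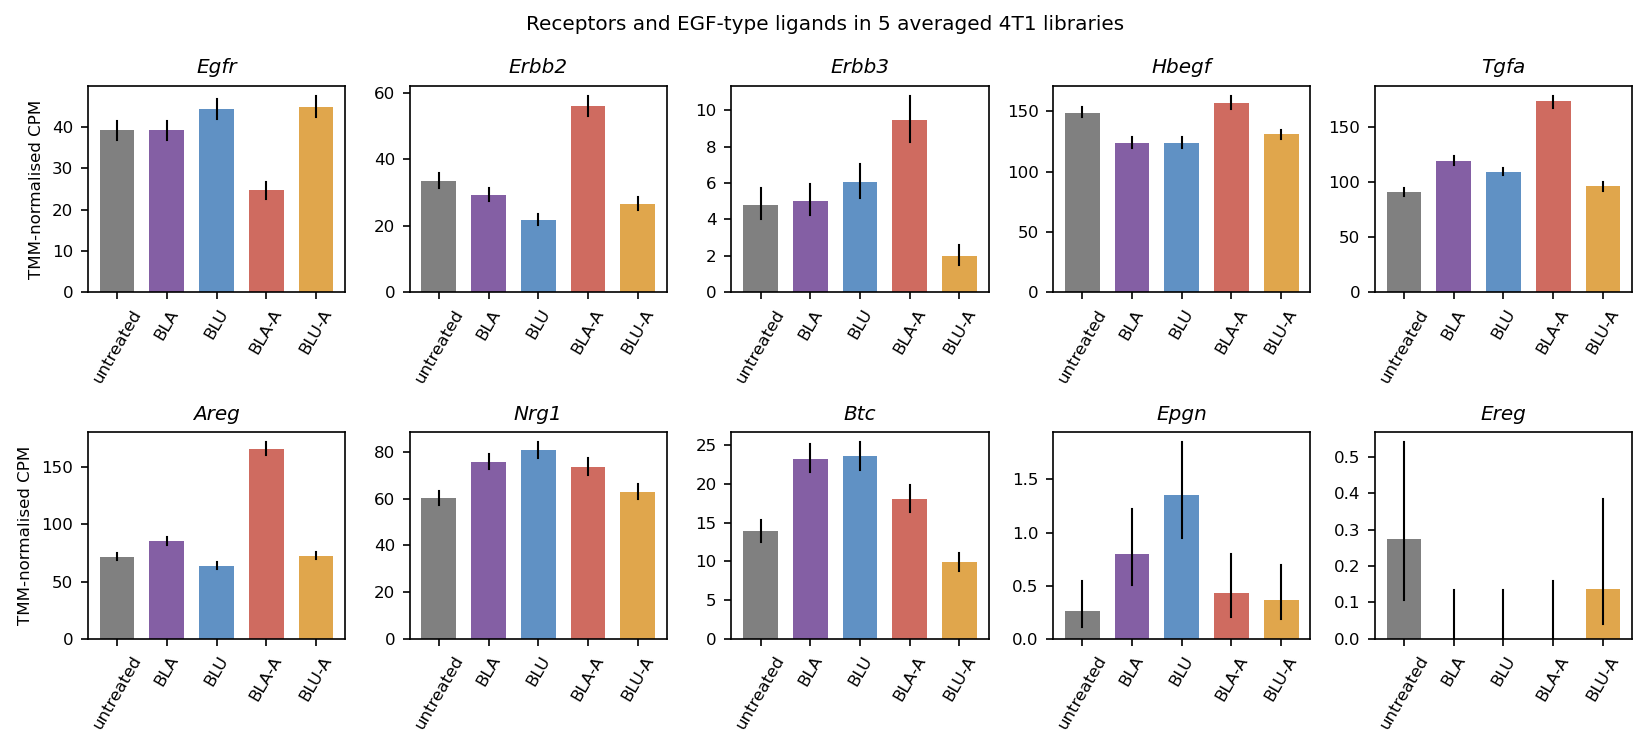
TMM-normalised CPM (y axis, linear from 0) of each receptor and ligand gene in the 5 averaged libraries (x axis), with exact Poisson 95% intervals as black lines. In BLA-A, Areg reached 166 CPM and Egfr was at its lowest, 24.7 CPM.

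The 3 receptors took different courses across the treatments. Egfr (chr11:16702198-16868158, plus strand, GRCm39) was at 39.2 CPM in untreated cells, 39.2 in BLA and 44.4 in BLU, with 24.7 in BLA-A and 44.9 in BLU-A. Its BLA-A level was the lowest of the 5, with an interval of 22.7 to 26.8 CPM against 36.8 to 41.6 in untreated cells. The log2 fold change of Egfr, on CPM plus 0.5, was -0.65 in BLA-A (counting interval -0.81 to -0.52) and between 0.0002 and 0.20 in the other 3 treatments. Erbb2 (chr11:98303203-98328542, plus strand) went the other way in BLA-A. Its level was 33.5 CPM in untreated cells, 29.3 in BLA and 21.8 in BLU, with 56.0 in BLA-A and 26.6 in BLU-A. Its log2 fold change was 0.73 in BLA-A (0.62 to 0.86) and -0.61 in BLU (-0.77 to -0.47), so the lowest and the highest Erbb2 levels both came from treated cells. Erbb3 (chr10:128403392-128425811, minus strand) was at 4.81 CPM in untreated cells, 5.02 in BLA and 6.05 in BLU, with 9.46 in BLA-A and 2.00 in BLU-A. Both nanoparticle libraries were the extremes for Erbb3, at a log2 fold change of 0.91 in BLA-A (0.66 to 1.30) and -1.09 in BLU-A (-1.75 to -0.79). The counts behind the BLU-A value were 53, 51 and 55 in the 3 columns, against 131, 123 and 131 in untreated cells. In BLA and BLU the counting intervals of Erbb3 included 0.

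Among the EGFR ligands, Areg and Tgfa were highest in BLA-A. Areg (amphiregulin, chr5:91287451-91296291, plus strand) was at 71.9 CPM in untreated cells, 85.2 in BLA and 64.0 in BLU, with 166 in BLA-A and 72.6 in BLU-A. Areg counts in the 3 BLA-A columns were 3846, 3821 and 3900, and in the 3 untreated columns 1931, 1906 and 1914. The log2 fold change of Areg was 1.20 in BLA-A (1.13 to 1.29), against 0.24 in BLA and -0.17 in BLU, and 0.01 in BLU-A. Tgfa (TGF-α, chr6:86172041-86252728, plus strand) was higher than in untreated cells in all 4 treatments. It was at 90.4 CPM in untreated cells, 119 in BLA and 109 in BLU, with 173 in BLA-A and 95.8 in BLU-A. Its log2 fold changes were 0.39, 0.28, 0.93 and 0.08 in that order, and the BLU-A interval, 0.003 to 0.17, began just above 0. Hbegf (HB-EGF), in untreated cells the most abundant ligand per kb of span, had log2 fold changes between -0.26 and 0.08. It was at 149 CPM in untreated cells, 124 in BLA and 124 in BLU, with 157 in BLA-A and 131 in BLU-A. Its log2 fold change in BLA-A was 0.08 (0.01 to 0.14), and it was -0.12 when libraries were scaled by total counts alone.

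Btc and Epgn were highest in the extract-treated cells. Btc (betacellulin, chr5:91505120-91550883, minus strand), which also binds ERBB4, was at 13.9 CPM in untreated cells, 23.3 in BLA and 23.6 in BLU, with 18.1 in BLA-A and 9.86 in BLU-A. Its BLA and BLU values lay together, at log2 fold changes of 0.73 (0.56 to 0.94) and 0.74 (0.58 to 0.95), and BLU-A was below untreated cells at -0.47 (-0.73 to -0.26). Epgn (epigen, chr5:91175323-91183074, plus strand) was the scarcest ligand that was kept. It was at 0.263 CPM in untreated cells, 0.795 in BLA and 1.35 in BLU, with 0.431 in BLA-A and 0.365 in BLU-A. These levels rest on mean counts of 7, 21.7, 37.3, 10 and 9.67. The log2 fold change of Epgn was 1.28 in BLU, with a counting interval of 1.17 to 3.76 for the ratio without the added 0.5 CPM. Because Epgn was kept through BLU alone, its difference there is a description. Ereg (epiregulin, chr5:91222157-91241505, plus strand) had 7, 8 and 7 counts in the untreated columns and 3, 4 and 4 in those of BLU-A. It had 0 counts in BLA, BLU and BLA-A, which allows up to 0.110, 0.109 and 0.129 CPM at a floor of 3 counts. The untreated level of 0.275 CPM had an interval of 0.106 to 0.541 CPM, whose lower end is under that floor in 3 libraries. No fold is given for Ereg at this depth.

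Nrg1 (neuregulin 1, chr8:32303906-33374825, minus strand), the ligand of ERBB3 and ERBB4, was higher than in untreated cells in all 4 treatments by small amounts. It was at 60.2 CPM in untreated cells, 75.8 in BLA and 80.8 in BLU, with 73.8 in BLA-A and 63.1 in BLU-A. Nrg1 had log2 fold changes of 0.33 (0.24 to 0.43), 0.42 (0.33 to 0.52), 0.29 (0.19 to 0.39) and 0.07 (-0.03 to 0.17). The BLU-A interval included 0.

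Against untreated cells, few of the ErbB genes differed by more than 1 on the log2 scale. In BLA none of the 9 genes kept did, where 16.4% of all genes did. In BLU 1 did, Epgn, which was kept through that library alone, beside 10.3% of all genes. In BLA-A 1 did, Areg, beside 20.9% of all genes, and in BLU-A 1 did, Erbb3, beside 7.87%. With 9 genes, counts of 0 or 1 lie near these shares. The median log2 fold change over the 9 genes was 0.24 in BLA and 0.28 in BLU, and it was 0.37 in BLA-A and 0.01 in BLU-A, beside which the medians over all genes tested were -0.01, -0.01, -0.01 and 0.0002. The 4 comparisons share the untreated library. In BLA-A, Tgfa at 0.93 and Erbb3 at 0.91 lay just short of the threshold. The transcript Gm26917 took 4.55% to 7.84% of counts, with the highest share in BLA-A. With it left out before scaling, or with no filter on low counts, 3 of the genes (Areg, Tgfa and Erbb3) passed in BLA-A. Both settings raised the BLA-A fold changes of all 9 genes, that of Egfr from -0.65 to -0.53 and -0.54. The 20.9% of all genes belongs to the main setting.

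**Figure D2:**
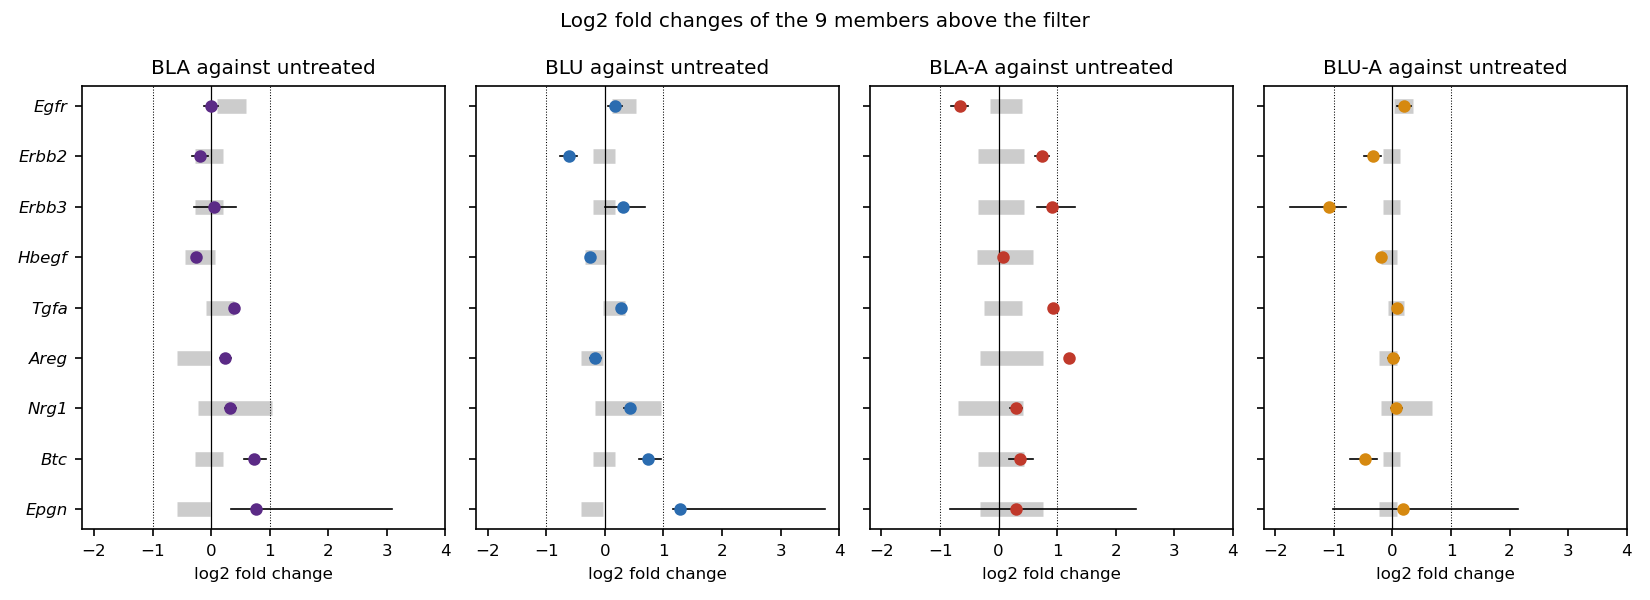
Log2 fold change against untreated cells (x axis, on CPM plus 0.5) of the 9 genes kept (y axis) in each treatment, as coloured points with 95% counting intervals of the count ratio (black lines). Grey bars span the quartiles of all genes with a mean of at least 10 CPM in the same class of gene span, and dotted lines stand at -1 and 1. Areg in BLA-A, at 1.20, and Erbb3 in BLU-A, at -1.09, lie outside their grey bars.

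Fold changes moved with the length of the counted gene in these libraries, and the ErbB genes span 7.75 to 1071 kb. Over genes with a mean of at least 10 CPM, the median log2 fold change in BLA went from -0.41 for genes of up to 5 kb to 0.70 for genes of 200 to 500 kb. In BLU it went from -0.34 to 0.62 and in BLU-A from -0.10 to 0.38 over the same classes. In BLA-A it was 0.25 for the shortest class, 0.02 at 20 to 50 kb and 0.25 at 200 to 500 kb. Set beside genes of their own length, several ErbB genes changed place. Nrg1, over 500 kb, was at 0.33 in BLA and 0.42 in BLU where its class medians were 0.47 and 0.46. Egfr, at 166 kb, was at 0.0002 in BLA where its class median was 0.34. Btc, at 45.8 kb, was at 0.73 in BLA and 0.74 in BLU where its class medians were -0.04 and -0.04. In BLA-A, Areg at 8.84 kb was at 1.20 beside a class median of 0.20, Tgfa at 80.7 kb was at 0.93 beside 0.07, and Egfr was at -0.65 beside 0.13. Erbb3 and Epgn, with means under 10 CPM, were set beside classes of more abundant genes. Less the class median, Areg in BLA-A was at 1.00 and Erbb3 in BLU-A at -1.07, both still past the threshold. Less the same medians, Epgn passed in BLA as well as BLU, at 1.09 and 1.52. This adjustment was chosen after the data were seen, and the part of gene length in the differences was not tested.

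**Figure D3:**
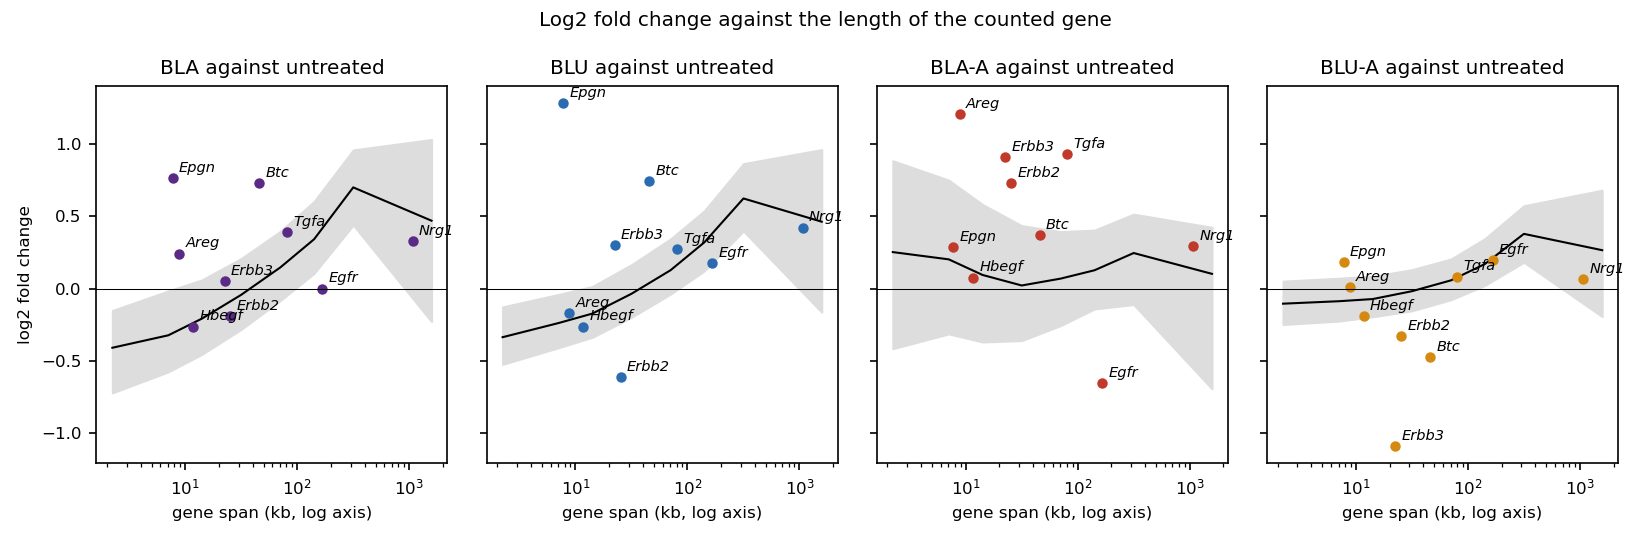
Log2 fold change against untreated cells (y axis) by gene span in kb (log x axis) for each treatment. The line joins the class medians of genes with a mean of at least 10 CPM, each drawn at the geometric middle of its class, the band gives their quartiles, and the points are the 9 ErbB genes. The line climbs up to the 200 to 500 kb class in BLA, BLU and BLU-A. In BLA-A it dips in the middle, and Areg, Erbb3, Erbb2 and Tgfa lie above the band.

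Each nanoparticle library was also set against that of its own extract. Blackberry nanoparticles against blackberry extract gave no ErbB gene past a log2 difference of 1, beside 24.5% of all genes. Areg was nearest at 0.96 (0.89 to 1.04), from 85.2 CPM in BLA to 166 in BLA-A. Erbb2 followed at 0.92 (0.81 to 1.06), Erbb3 at 0.85 (0.60 to 1.23) and Tgfa at 0.54 (0.47 to 0.61), while Egfr was at -0.65 (-0.81 to -0.52). In this comparison Areg lay inside the quartiles of its class of span, -0.11 to 1.07 around a median of 0.46. Erbb2, Erbb3 and Tgfa lay above the quartiles of their classes, and Egfr lay below its own, -0.53 to 0.03. Blueberry nanoparticles against blueberry extract gave 3 genes past 1, all lower, beside 3.79% of all genes lower past 1 and 6.68% in either direction. They were Erbb3 at -1.39 (-2.07 to -1.15), Btc at -1.22 (-1.47 to -1.05) and Epgn at -1.10 (-3.005 to -0.80), the last kept through BLU alone. The intervals are for the ratios without the added 0.5 CPM, so those of Erbb3 and Epgn are not centred on the values given. Egfr differed between BLU-A and BLU by 0.02 (-0.10 to 0.13).

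Comparisons that group libraries leave some residual spread, that between different treatments, and could be tested, with the edgeR quasi-likelihood test and Benjamini-Hochberg adjustment over all 17594 genes. No ErbB gene passed an adjusted p of 0.05 in any of the 3. In the 4 treated libraries against the untreated one, 4 genes of all passed (0.0227%), and the smallest adjusted p of an ErbB gene was 0.9996. Tgfa was nearest, at a log2 fold change of 0.46 ± 0.36 (SE), higher in 4 of 4 treated libraries. At an unadjusted p under 0.05 there were 478 genes and none of the 9 ErbB genes, and DESeq2 called 18 genes and none of the 8 ErbB genes it gave an adjusted p. In nanoparticles against extracts, 2 libraries each, no gene passed (0%), with 1064 genes and no ErbB gene under an unadjusted p of 0.05. DESeq2 called 36 genes there, none of them ErbB genes. Btc was nearest, at -0.75 ± 0.37 (adjusted p = 0.698, edgeR), lower in 2 of 2 nanoparticle libraries. In blackberry against blueberry, 2 libraries each, no gene passed (0%), with 675 genes under an unadjusted p of 0.05 and 27 called by DESeq2, no ErbB gene among the 27. Areg was the ErbB gene among the 675, at 0.88 ± 0.35 (adjusted p = 0.947, edgeR), higher in 2 of 2 blackberry libraries. Erbb2 was at 0.82 ± 0.38 (adjusted p = 0.947, edgeR), also higher in 2 of 2.

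Leaving out 1 library changed 2 of these tests. Without BLA, the blackberry side is BLA-A alone, which is assumed to vary like the blueberry pair, on 1 residual degree of freedom. Then 5 of the 9 ErbB genes passed beside 29.4% of all genes. They were Areg at 1.28 ± 0.17 (adjusted p = 9.29e-12), Erbb2 at 1.21 ± 0.23 (adjusted p = 2.04e-06), Tgfa at 0.75 ± 0.18 (adjusted p = 0.000268), Egfr at -0.86 ± 0.24 (adjusted p = 0.00214) and Erbb3 at 1.23 ± 0.42 (adjusted p = 0.0147). Without BLU-A, the nanoparticle side is BLA-A alone and is assumed to vary like the extract pair. Then 4 ErbB genes passed beside 24.4% of all genes. They were Areg at 1.26 ± 0.19 (adjusted p = 6.71e-05), Erbb2 at 1.23 ± 0.23 (adjusted p = 0.000639), Tgfa at 0.70 ± 0.17 (adjusted p = 0.0045) and Egfr at -0.65 ± 0.23 (adjusted p = 0.0485). Both fits set the single BLA-A library against a pair. Leaving out the other libraries gave no ErbB gene in any of the 3 comparisons.

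Along the chromosome 5 stretch, differences did not extend evenly over neighbouring genes. The genes within 400 kb of the start of Areg were listed after values were seen. In BLA-A, Areg was at a log2 fold change of 1.20, while Epgn, with its start at -112 kb from that of Areg, was at 0.29 and Btc, with its own at 263 kb, at 0.37. Mthfd2l, a folate enzyme gene at -209 kb, was at -0.11. The neutrophil chemokine genes of the stretch also split in BLA-A. Cxcl1 was at 0.23 (138 CPM in untreated cells and 163 in BLA-A) and Cxcl5 at 0.03. Cxcl2 was at 2.35, from 0.288 to 3.52 CPM, and Cxcl3 at 2.25, from 0.0125 CPM, under the floor, to 1.94 CPM. Cxcl2 was kept only through BLU and BLA-A, and Cxcl3 only through BLA and BLA-A, so their differences there are descriptions. In BLA, Cxcl3 was at 1.73. In BLU, Cxcl2 at 1.40 and Epgn at 1.28 were the protein-coding genes of the stretch past 1.

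**Figure D4:**
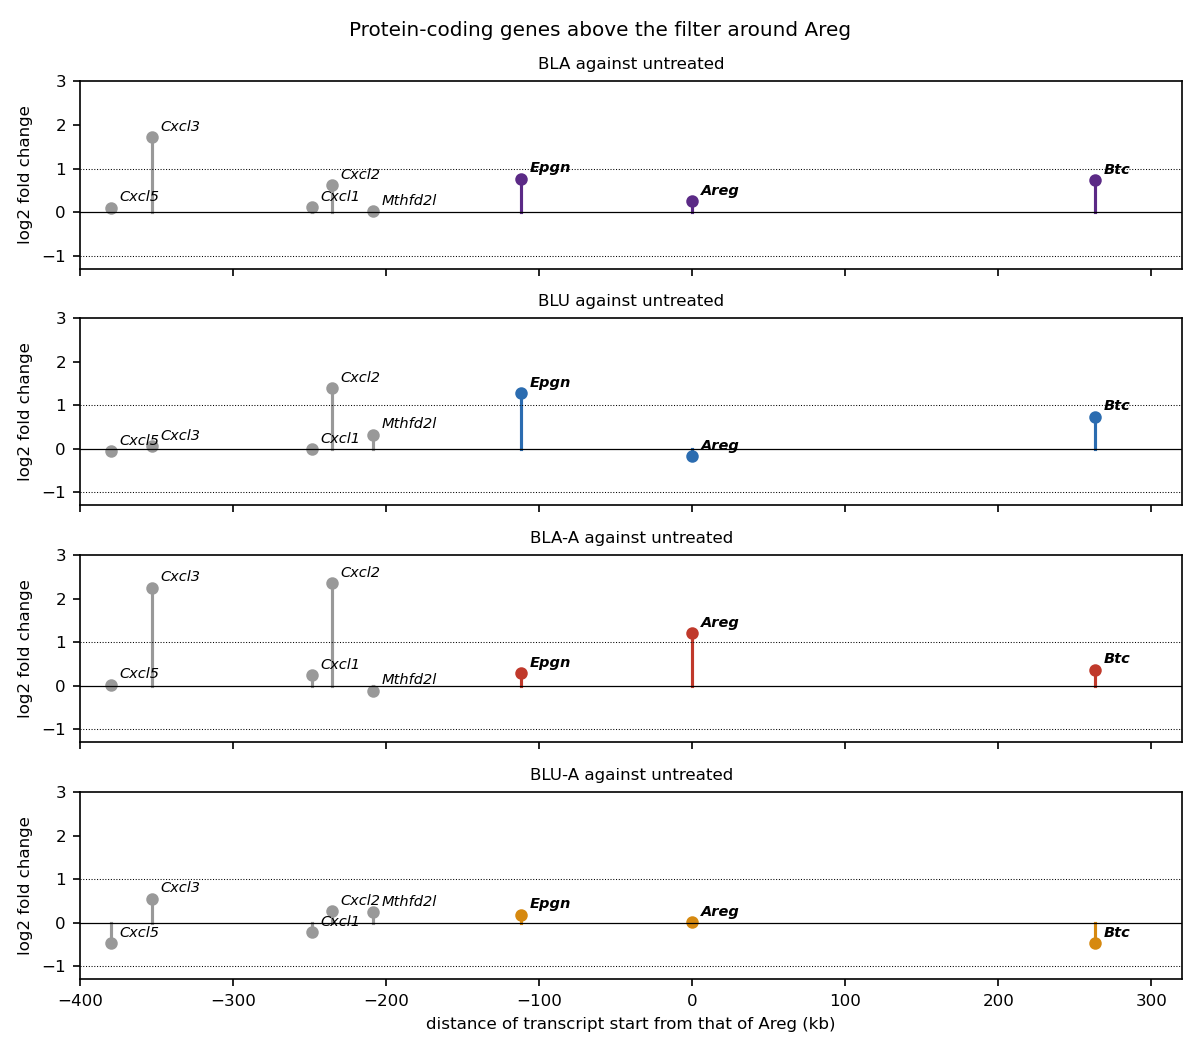
Log2 fold change against untreated cells (y axis) of the protein-coding genes around Areg that passed the filter, by distance of their starts from that of Areg in kb (x axis), for each treatment. ErbB ligands are coloured and in bold, other genes grey, and dotted lines stand at -1 and 1. In BLA-A, Areg stands at 1.20 between Epgn at 0.29 and Btc at 0.37.

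Outside the 10 genes, Erbb4 and Nrg3 had lower levels in each of the 4 treatments than without treatment. Erbb4, the remaining receptor, which binds neuregulins and betacellulin, was at 4.74 CPM in untreated cells, 0.367 in BLA and 2.53 in BLU, with 0.82 in BLA-A and 2.34 in BLU-A. Its log2 fold changes were lowest with blackberry, at -2.60 in BLA and -1.99 in BLA-A. Its class of span had medians of 0.47 and 0.10 there, over genes with a mean of at least 10 CPM, which Erbb4 did not reach. In blackberry against blueberry, Erbb4 was at -2.04 ± 0.73 (adjusted p = 0.947, edgeR quasi-likelihood test), lower in 2 of 2 blackberry libraries. Egf was at 0.675 CPM in untreated cells, 1.58 in BLA and 2.07 in BLU, with 0.82 in BLA-A and 1.22 in BLU-A. It passed the threshold in BLU, at 1.13. Egf was kept only through BLA, BLU and BLU-A, so its difference in BLU is a description. Nrg3, an ERBB4 ligand named here after its values were seen, was at 7.70 CPM in untreated cells, 0.955 in BLA and 3.29 in BLU, with 0.69 in BLA-A and 3.33 in BLU-A. Of these 5 genes, which include Nrg2 and Nrg4, 2 were past 1 in either direction in BLA (16.4% of all genes). In BLU 2 were (10.3%), Egf among them. In BLA-A 2 were (20.9%), and in BLU-A 1 was (7.87%).

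Genes that free the ligands mostly stayed under the threshold. Of 9 such genes, 1 passed in BLU, where 10.3% of all genes did, and 1 in BLA-A, where 20.9% did. The gene in BLU was the protease gene Adam12 at 1.01, in a 349 kb gene whose class had a median of 0.62. The gene in BLA-A was Rhbdf2 at 1.39, which encodes the iRHOM2 partner of ADAM17 and was at 53.3 CPM in untreated cells and 140 in BLA-A. Adam17 itself was at 135 CPM in untreated cells, 125 in BLA and 129 in BLU, with 160 in BLA-A and 122 in BLU-A. Over the 9 genes the median was 0.39 in BLA-A and between -0.07 and 0.01 in the other treatments.

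Of 21 genes of proximal signaling, 2 were past 1 in BLA, beside 16.4% of all genes, and 3 in BLA-A, beside 20.9%, all of them higher. None was past 1 in BLU, beside 10.3%, or in BLU-A, beside 7.87%. Those in BLA were the docking protein genes Gab1, from 11.1 to 26.4 CPM, and Gab2, from 38.3 to 100 CPM. Gab1, at a log2 fold change of 1.21, spans 116 kb, and its class median in BLA was 0.34. Gab2, at 1.38, spans 227 kb, and its class median was 0.70. Those in BLA-A were Hras, from 13.1 to 28.2 CPM, Mapk3 (ERK1), from 53.7 to 119 CPM, and Akt1, from 194 to 404 CPM. Of 16 genes of receptor turnover and inhibition, 1 was past 1 in BLA, the ubiquitin ligase gene Cblb at 1.02, and 1 in BLA-A, the endosomal sorting gene Hgs at 1.00. Over all genes 16.4% and 20.9% were past 1 in these treatments. Cblb spans 177 kb, and its class median in BLA was 0.34. Errfi1, an inhibitor of the EGFR kinase, was at 439 CPM in untreated cells, 413 in BLA and 420 in BLU, with 507 in BLA-A and 442 in BLU-A.

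Of 17 genes that respond to ERK, 4 were higher past 1 in BLA-A and 13 were not past it in either direction. Over all genes 8.55% were higher past 1 there and 20.9% were past it in either direction. None was past 1 in either direction in BLA (16.4% of all genes), BLU (10.3%) or BLU-A (7.87%), and the difference between the treatments was not tested. The 4 genes were the feedback inhibitor gene Spry2, from 33.4 to 75.1 CPM, and the immediate early genes Egr1, from 210 to 461 CPM, Fos, from 13.2 to 62.4 CPM, and Ier3, from 125 to 805 CPM. These 4 span 1.25 to 7.68 kb. Genes of up to 5 kb and of 5 to 10 kb had class medians of 0.25 and 0.20 in BLA-A, with upper quartiles of 0.88 and 0.75. Dusp6, another feedback gene of this list, was at 171 CPM in untreated cells and 150 in BLA-A, and was named after its values were seen. In the 4 treated libraries against the untreated one, the genes of these lists named here had adjusted p values of 0.9996 (edgeR quasi-likelihood test).

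**Figure D5:**
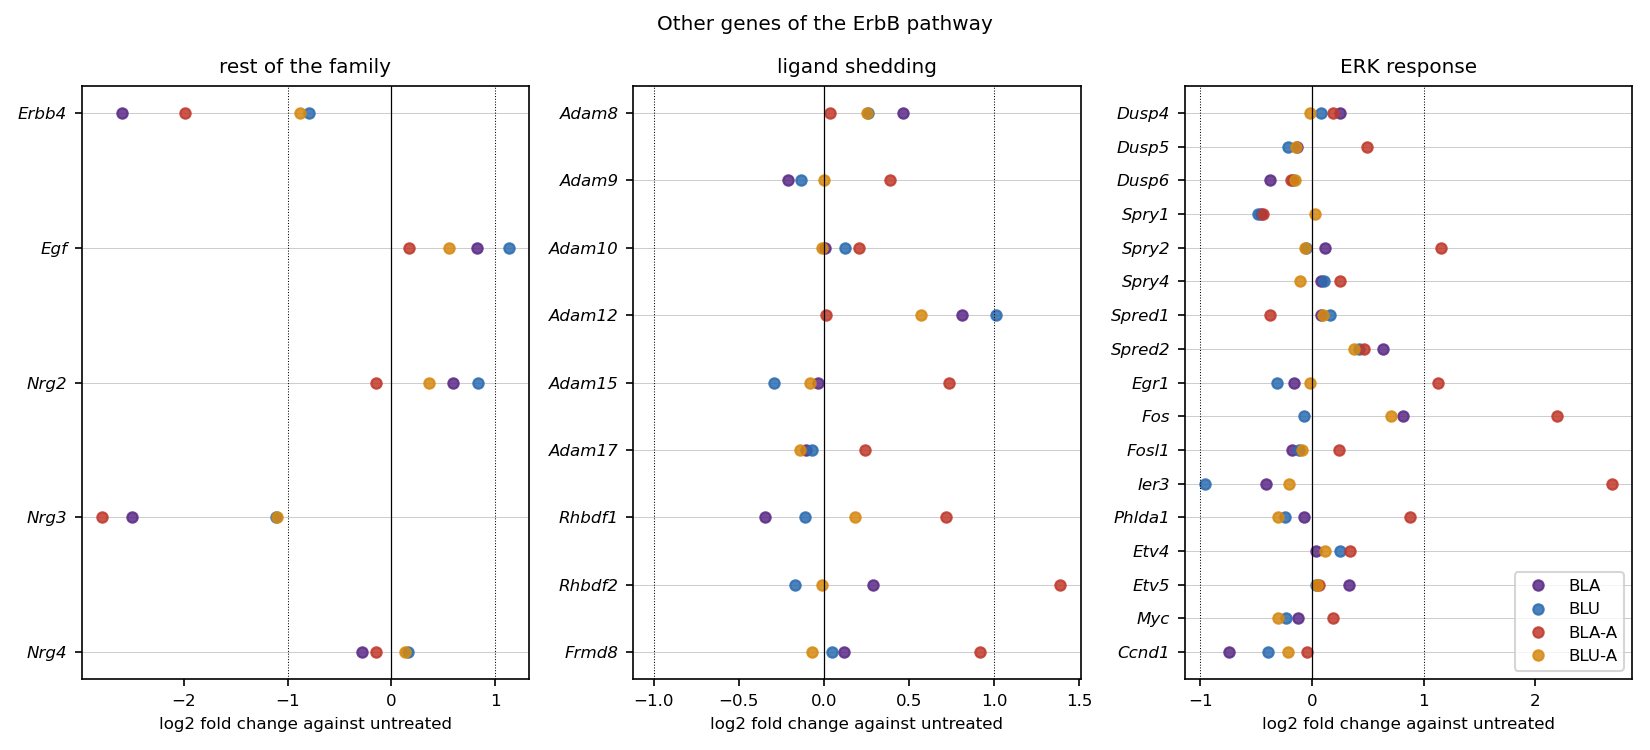
Log2 fold change against untreated cells (x axis) of the other family members, the ligand-shedding genes and the ERK-responsive genes (y axis), coloured by treatment, with dotted lines at -1 and 1. The BLA-A points of Ier3 at 2.68, Fos at 2.20 and Rhbdf2 at 1.39 lie farthest right, and Erbb4 and Nrg3 lie left of 0 in all 4 treatments.

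The genes nearest each receptor in pattern were found by the root mean square difference of their 4 log2 fold changes, over about 9763 genes with a mean of at least 10 CPM. Syn3, a synapsin gene, and Ankra2 were nearest to Egfr, at 0.0464 and 0.0525. Nlrp4e and Fads3 were nearest to Erbb2, at 0.0782 and 0.0918. For Erbb3 the nearest were Pigo at 0.295 and Egln2 at 0.347, farther off than those of the other receptors. The 4 values share the untreated library.

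Several of the genes overlap others on the opposite strand, and since the paired reads had been merged and counted as single reads, reads of overlapping genes may not have been told apart. Eldr, which overlaps Egfr, was at 4.13 to 8.39 CPM, lowest in BLA-A as Egfr was. Mien1, which overlaps Erbb2, was at 33.8 to 41.4 CPM, and Gm41698, which overlaps Hbegf, at 9.51 to 31.1 CPM and highest in BLA-A. Mien1 was at 39.4 CPM in untreated cells and 35.8 in BLA-A, where Erbb2 was highest. Gm19610, which overlaps Ereg, was at 0.7 CPM in untreated cells and 0 to 0.0377 CPM in the treatments, highest without treatment as Ereg was. Areg, Btc and Epgn overlap no annotated gene. The sum of the epithelial markers was highest in BLA-A, with 5 of 6 above untreated cells and Epcam below, and its part in the BLA-A values of the ErbB genes was not tested. In bulk RNA, fewer cells of a kind and less RNA per cell cannot be told apart.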

How the data were processed

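RNA of 4T1 cells was sequenced in 5 conditions. The authors removed ribosomal RNA, aligned merged mates as single reads to GRCm39 with STAR, and counted them by strand on whole genes in OmicsBox. The deposited table holds raw counts without normalization for 40402 genes in 15 columns. Per the labels each column has its own batch, 15 distinct in all, so batch and sample cannot be told apart. Deposited tables of the authors' own comparison (fold changes and p-values) and of gene set enrichment were not used. The submitters' processing notes name DESeq2 1.36.0.

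Columns of a condition were averaged to 1 library. Counts were scaled by TMM in edgeR 4.0.16, genes at 1 CPM or more in any library were kept, and 0.5 was added to CPM before log2 fold changes were computed, which understates changes of low genes. A log2 fold change over 1 in size was counted. Intervals are exact Poisson for levels and exact binomial for ratios, at 95%, without allowance for PCR copies. Those for ratios leave out the added 0.5 CPM, so for low genes they are not centred on the log2 fold change. Grouped libraries were compared in edgeR (quasi-likelihood test, p adjusted by Benjamini-Hochberg over all genes). DESeq2 1.42.0 was an alternative, beside other scalings, filters, pseudocounts and left-out libraries. R 4.3.3, Python 3.11.15 and matplotlib 3.10.9 were used. Spans and exons came from GENCODE M39, and upstream windows from RefSeq (GRCm38.p6).

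The genes and lists were chosen with earlier results of these data known. Named were the 10 genes, list genes past the threshold in any treatment with a mean of at least 5 CPM, Errfi1, Adam17, Erbb4 and Egf, and the 2 genes nearest each receptor. Genes around Areg, Nrg3, Dusp6 and Gm26917 were named after their values were seen.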

Additional observations from a re-analysis of the deposited data

Results flagged for a closer look

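Nanoparticles and extracts differed in opposite directions in the 2 berries for Erbb3 and Tgfa, and the difference between the berries was not tested, since each of the 4 treatments has 1 library. Erbb3 was 0.85 higher on the log2 scale in BLA-A than in BLA, and BLU-A minus BLU was -1.39. Tgfa was 0.54 higher in BLA-A than in BLA, and BLU-A minus BLU was -0.19. The counting intervals of all 4 values left out 0. The Tgfa value in BLU-A against BLU lay inside the quartiles of its class of span in that comparison, -0.20 to 0.04.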

How the results depend on the processing

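In BLA-A the ErbB genes past the fold threshold numbered 3 with no filter on low counts and 3 with Gm26917 left out. Both settings raised the BLA-A fold changes of the ErbB genes kept. In BLU the number was 0 with at least 10 counts required in every library and 0 with a pseudocount of 2 CPM, and in BLU-A it was 0 with a pseudocount of 2 CPM. In BLA it was 1 (Epgn) with a pseudocount of 0.1 CPM and 1 less the class median of gene span. Total-count scaling shifted log2 fold changes in BLA-A by -0.19, which put Areg at 1.01 and Tgfa at 0.74. The order of levels kept 3 ranks with merged exons. Leaving out each treated library in turn gave 0 to 5 ErbB genes in blackberry against blueberry and 0 to 4 in nanoparticles against extracts. Leaving out each column number in turn changed none of these counts, and no direction past a threshold reversed.

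With the 15 columns as separate samples, 1 ErbB gene was called in each treatment, without a block and with the replicate block alike. Genes called among all genes without the block numbered 2604 (BLU-A), 2931 (BLU), 4026 (BLA) and 4942 (BLA-A), and with it 4025 (BLA). Of the 9 ErbB genes, 7 (BLU-A and BLA), 8 (BLA-A) or 9 (BLU) were under an adjusted p of 0.05 either way. That is a wider rule than the calls above. No share of all genes under it is given, so these counts say nothing particular to the ErbB genes. Since the columns of a condition were counted as 1 sample, these calls have no replicate check, and no conclusion is drawn from them. The replicate numbers do not pair the samples. Deviations of same-numbered columns had a mean correlation of -0.000928 over 30 pairs (range -0.0272 to 0.017), and 5 of 15 columns correlated best with a column of their own number. Depth limits Ereg and Epgn, at 37.3 counts or fewer in any library.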
